A study of Danio rerio with 24 samples.

Results

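The miR-430 precursor genes of zebrafish (Danio rerio) were followed through the hours in which the embryo starts its own transcription, in embryos treated with oligomycin or actinomycin D and in untreated embryos. Members were all gene identifiers whose Ensembl gene name begins with dre-mir-430 or mir430. There were 55 of them among the 32520 identifiers counted.

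The miR-430 microRNAs are made in zebrafish from long primary transcripts of a tandem array of hairpin genes. The hairpins are cut out by Drosha with its partner Dgcr8, trimmed by Dicer and loaded into Argonaute proteins, and the mature microRNAs lead deadenylation and clearance of many maternal mRNAs. The array is among the earliest and most strongly transcribed loci of the zebrafish genome, and its activation depends on the maternal factors Nanog, Pou5f3 and Sox19b. The libraries were made with QuantSeq, which primes on poly(A) tails and reads near the 3′ end, so reads on a hairpin gene were taken as reads of precursor RNA. Mature microRNAs were not measured.

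All embryos were wild type (TLAB strain). The 6 groups were embryos in oligomycin (1 µM), which inhibits the mitochondrial ATP synthase, embryos exposed to actinomycin D (10 µg/ml), which blocks transcription, and untreated embryos, each at 3 and at 4 hours post fertilization (hpf), with 4 libraries per group. Per the treatment protocol both inhibitors were in the medium from laying onwards. The design text mentions injection of actinomycin D, and the sources leave its route unsettled. The design asks whether oligomycin embryos activate zygotic genes, with actinomycin D as the control without zygotic transcription. How many embryos entered a library, and whether the libraries of a group came from separate clutches, is not given in the sources used here, so p-values measure the spread between these libraries.

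Total counts per library ran from 1453642 (oligomycin 3 hpf replicate 3) to 3431533. Of the early embryo markers, buc and dazl, maternal germ plasm genes, had group means of 567 CPM (counts per TMM-adjusted library total) or more in all 6 groups. Of the later tissue markers, actc1b (muscle) and elavl3 (neurons) reached at most 2.51 and 4.75 CPM in any library. Actinomycin D 4 hpf replicate 4 stood apart: a sum of 43 other transcription-dependent genes, defined later, was 209.8 CPM there, against 18.8 to 26.9 CPM in the other 3 libraries of its group. The titles' library numbers form 2 series, replicates 1 and 2 and replicates 3 and 4. At 3 hpf the same 43-gene sum was 2038 and 2440 CPM in the untreated libraries of the first series, and 515.3 and 830.5 CPM in those of the second.

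Reads on the array were few and fell on a handful of hairpins. Over all 24 libraries the 55 genes took 3486 reads. Of these genes, 17 had at least 1 read, 38 had none, and 5 passed the filter on low counts. The name dre-mir-430b-17 (ENSDARG00000114956) held 1671 reads, or 47.9% of the family total. Next came dre-mir-430a-13 (ENSDARG00000111403) with 786 reads and dre-mir-430b-6 (ENSDARG00000109380) with 648, and these 3 genes together held 89.1%. The other genes that passed the filter were dre-mir-430b-16 (ENSDARG00000110957) with 121 reads and dre-mir-430b-5 (ENSDARG00000111340) with 99. The remaining 12 genes with reads ranged from dre-mir-430b-1 with 70 and dre-mir-430a-2 with 38 down to dre-mir-430b-14 and dre-mir-430c-17 with 1 each. The copies are nearly identical, and how reads that match several copies were counted is not given in the sources used here, so the gene to which a read was assigned is uncertain and the summed count is the safer measure.

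The genes counted here carried names of 3 subtypes, a, b and c, set apart by small differences in the mature microRNA. These subtypes were counted unequally. Subtype b held 2610 reads on 6 of its 20 genes, and 4 of those passed the filter. Subtype a held 868 reads on 8 of 17 genes, and 1 passed. Subtype c held 8 reads on 3 of 18 genes, and none passed.

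The RefSeq gene order of assembly GRCz12tu, which is not the build of the counts, served here only to see which genes neighbour each other. All 55 identifiers were found there by name, and 54 lay on a single chromosome. The identifiers carried 51 distinct names. The 7 identifiers whose name is shared were given the place of that name, so some places count more than once. Another miR-430 hairpin lay on both sides of 49 identifiers and on 1 side of 5 identifiers. The exception was mir430a-1 (ENSDARG00000083624), which lay on a different chromosome and had 12 reads. Of the 17 hairpins with reads, 9 lay directly beside another with reads.

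**Figure D1:**
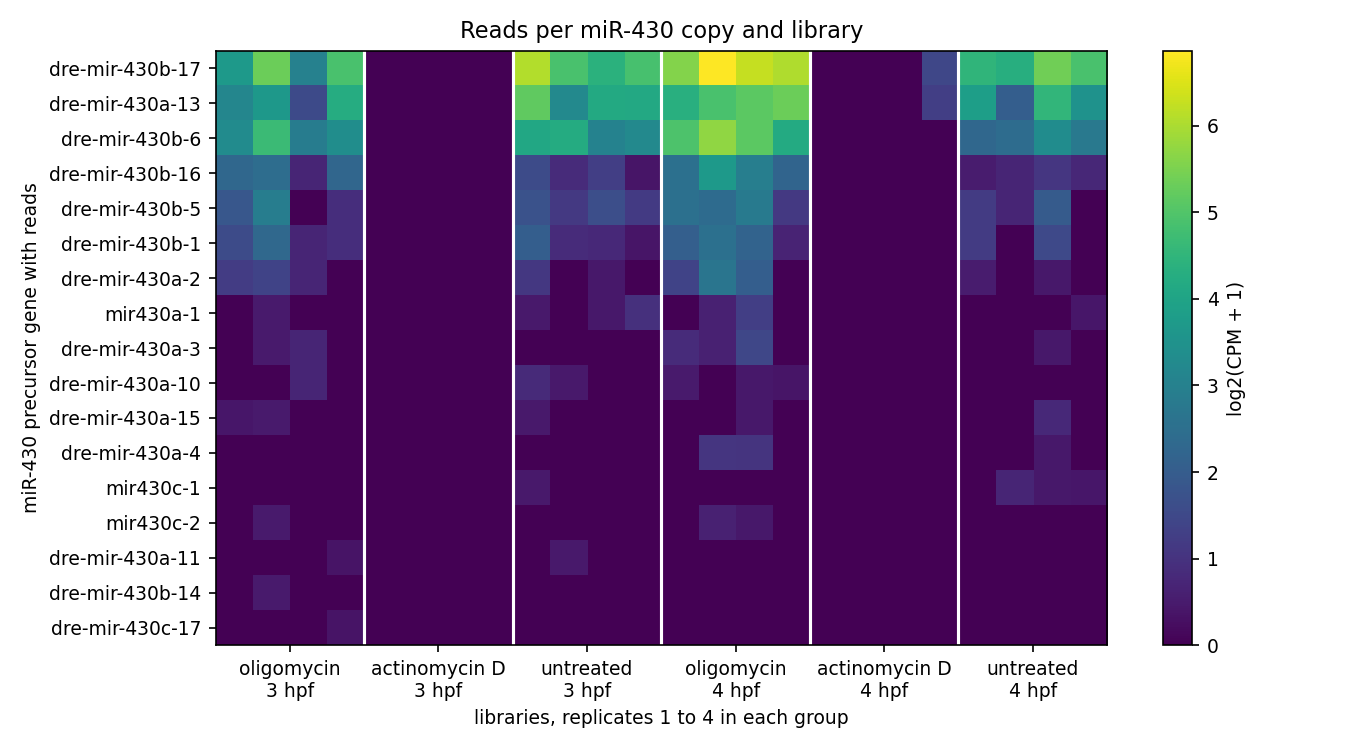
Counts of the 17 miR-430 precursor genes with reads in each of the 24 libraries, as log2(CPM + 1), with genes from most to fewest reads down the page and replicates 1 to 4 within each group across it. The signal sat in dre-mir-430b-17, dre-mir-430a-13 and dre-mir-430b-6 in the oligomycin and untreated libraries, and actinomycin D libraries were at 0 apart from replicate 4 at 4 hpf.

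Summed over the copies, miR-430 precursor reads had the highest group mean in oligomycin embryos at 4 hpf. Their range overlapped that of untreated embryos at 3 hpf, and that difference was not called. The sum was 112, 225, 168 and 127 CPM in the 4 oligomycin libraries at 4 hpf, against 42.3, 28.2, 79.5 and 46.2 CPM in the 4 untreated libraries at 4 hpf. Every oligomycin library lay above every untreated one. The means were 158 ± 50.6 CPM in oligomycin and 49.0 ± 21.7 CPM in untreated embryos (SD, n = 4 each). The fitted log2 fold change was 1.66 (SE 0.470), or 3.17-fold, with an adjusted p of 0.0182 (edgeR's quasi-likelihood test on all 24 libraries, Benjamini-Hochberg over the 11234 rows of the table with the copies summed). In bulk RNA, fewer transcribing cells and less RNA per cell cannot be told apart.

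The call at 4 hpf rested on few libraries. It was lost without untreated replicate 1 (log2 fold change 1.64, adjusted p 0.0552), without untreated replicate 2 (1.53, adjusted p 0.0567) and without oligomycin replicate 2 (1.45, adjusted p 0.0532). Within the first library series the log2 fold change was 2.23 (adjusted p 0.0638), with means of 168.4 CPM in oligomycin and 35.3 CPM in untreated embryos, and within the second it was 1.27 (adjusted p 0.428), with means of 147.5 CPM in oligomycin and 62.8 CPM in untreated embryos.

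At 3 hpf the sums of oligomycin and untreated embryos overlapped. The oligomycin libraries had 39.0, 94.0, 18.6 and 62.2 CPM (mean 53.5 ± 32.4), and the untreated libraries had 129, 58.1, 48.9 and 56.1 CPM (mean 72.9 ± 37.3, SD, n = 4 each). The lowest was oligomycin replicate 3, the shallowest library, with 29 reads, and the highest was untreated replicate 1, with 330 reads. The log2 fold change was -0.42 (SE 0.467, edgeR adjusted p 1.00), and it was 0.0047 without untreated 3 hpf replicate 1. The change of the oligomycin difference between 3 and 4 hpf was 2.08 on the log2 scale (SE 0.661), with an unadjusted p of 0.00595 and an adjusted p of 0.127 in edgeR, so the difference between the times did not pass.

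Actinomycin D embryos had almost no miR-430 reads. All 4 actinomycin D libraries at 3 hpf held 0 reads on all 55 genes, against 330, 147, 136 and 180 reads in the untreated libraries at 3 hpf. Setting each actinomycin D library at a floor of 3 reads, which was 0.928 to 1.56 CPM over the 8 actinomycin D libraries, untreated embryos at 3 hpf were at least 60.9-fold higher (edgeR adjusted p 0.000377). At 4 hpf the actinomycin D libraries held 0, 0, 0 and 9 reads, against 98, 45, 216 and 135 reads in the untreated libraries. The log2 fold change was -5.74 (SE 0.812, edgeR adjusted p 7.23e-05). All 9 reads were in replicate 4, the library that stood apart, where they made 3.16 CPM, and without it untreated embryos at 4 hpf were at least 37.8-fold higher. Floors and intervals here cover counting error only, since amplified reads are not independent molecules.

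Oligomycin embryos lay far above actinomycin D embryos at both times. At 3 hpf the oligomycin libraries held 119, 233, 29 and 212 reads, against 0 in each actinomycin D library, so the oligomycin mean was at least 44.7-fold higher (edgeR adjusted p 0.00152). At 4 hpf they held 279, 419, 477 and 422 reads, against 0, 0, 0 and 9 in actinomycin D embryos, a log2 fold change of 7.40 (SE 0.771, edgeR adjusted p 2.71e-05). Without actinomycin D 4 hpf replicate 4 the fold at 4 hpf was at least 122. These comparisons share libraries with those against untreated embryos and are not independent of them.

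**Figure D2:**
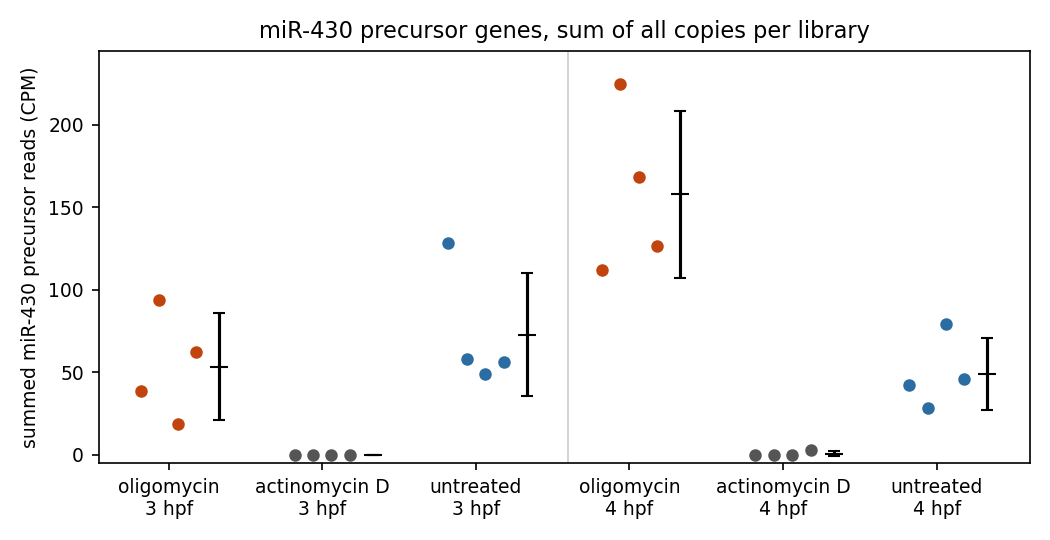
Summed miR-430 precursor reads per library in CPM (linear axis), with a point per library and bars for the mean ± SD of each group (n = 4). The oligomycin libraries at 4 hpf sit between 112 and 225 CPM, above all untreated libraries at 4 hpf, and the highest actinomycin D library is at 3.16 CPM.

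With time, the sums moved in different directions in the 3 treatments, and none of these changes passed the test. In oligomycin embryos the 4 hpf libraries (112 to 225 CPM) all lay above the 3 hpf libraries (18.6 to 94.0 CPM), with a log2 fold change of 1.53 (SE 0.466, unadjusted p 0.00438, edgeR adjusted p 0.208). In untreated embryos the 4 hpf libraries (28.2 to 79.5 CPM) overlapped the 3 hpf libraries (48.9 to 129 CPM), and the log2 fold change was -0.55 (SE 0.471, edgeR adjusted p 0.431). That sign held in the first library series, and the second gave 0.22. In actinomycin D embryos a difference between the times existed through replicate 4 at 4 hpf alone (edgeR adjusted p 0.380). Set in order of mean, the groups were oligomycin 4 hpf, untreated 3 hpf, oligomycin 3 hpf, untreated 4 hpf, actinomycin D 4 hpf at 0.789 ± 1.58 CPM and actinomycin D 3 hpf at 0. Of the neighbours in that order that were compared, oligomycin 4 hpf against untreated 3 hpf was not called (log2 fold change 1.11, SE 0.457, edgeR adjusted p 1.00). Oligomycin against untreated at 3 hpf and actinomycin D at 4 against 3 hpf were not called either. Untreated against actinomycin D at 4 hpf was called.

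Single hairpins were tested in the table of all genes, where 11238 passed the filter. Of the 5 tested, dre-mir-430b-16 and dre-mir-430b-5 passed it through their oligomycin libraries, with at most 1.95 and 2.94 CPM in any untreated library. Counts of hairpins higher in oligomycin embryos are conditioned on that. In oligomycin against untreated embryos at 4 hpf, 3 of the 5 miR-430 genes tested were higher and none was lower, while 12.3% of all genes tested were called higher and 9.05% lower. The same comparison had the only calls of a miR-430 gene between oligomycin and untreated embryos. At 3 hpf 0 of 5 were called (DESeq2 also called 0), with 0% of all genes called in either direction. There 1 of the 5, dre-mir-430b-16, and 486 of all 11238 genes had an unadjusted p under 0.05 in edgeR.

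The hairpin dre-mir-430b-17 had the largest mean share of the family's reads in the 4 oligomycin and untreated groups, 39.2% to 57.7%. It had 47.3, 115, 75.1 and 64.8 CPM in oligomycin libraries at 4 hpf, against 21.6, 18.8, 40.5 and 28.8 CPM in untreated libraries at 4 hpf. All oligomycin values were above all untreated values at 4 hpf. Its log2 fold change was 1.44 (SE 0.470, edgeR adjusted p 0.0365), and the call was lost when any of 5 libraries was left out, untreated 4 hpf replicate 1, 2 or 4 or oligomycin 4 hpf replicate 2 or 3 (largest adjusted p 0.103). At 3 hpf it had 12.1, 39.1, 7.07 and 28.8 CPM in oligomycin libraries, against 66.2, 28.5, 19.8 and 28.0 CPM in untreated libraries, which overlapped.

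The hairpin dre-mir-430a-13, the only member of subtype a that passed the filter, had 19.2, 28.5, 34.2 and 38.7 CPM in oligomycin libraries at 4 hpf, against 13.4, 3.14, 21.7 and 10.3 CPM in untreated libraries at 4 hpf. The lowest oligomycin value was below the highest untreated value. Its log2 fold change was 1.27 (SE 0.528, edgeR adjusted p 0.0927) and did not pass. At 3 hpf it had 7.87, 11.7, 1.93 and 17.9 CPM in oligomycin libraries, against 35.4, 8.30, 16.9 and 16.8 CPM in untreated libraries.

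Of the 3 hairpins with the most reads, dre-mir-430b-6 had the largest fitted difference at 4 hpf. It had 29.7, 52.1, 34.2 and 17.4 CPM in oligomycin libraries, against 3.89, 4.39, 9.20 and 5.82 CPM in untreated libraries at 4 hpf. The groups did not overlap, and the log2 fold change was 2.46 (SE 0.451, edgeR adjusted p 0.000921), a call that held without each library in turn (2.21 to 2.78). At 3 hpf its values were 8.86, 24.6, 6.42 and 9.40 CPM in oligomycin libraries, against 16.4, 17.8, 7.20 and 8.41 CPM in untreated libraries, a log2 fold change of 0.0092. The change of the difference between 3 and 4 hpf was 2.45 on the log2 scale (SE 0.622) and was not called in edgeR (adjusted p 0.0620).

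**Figure D3:**
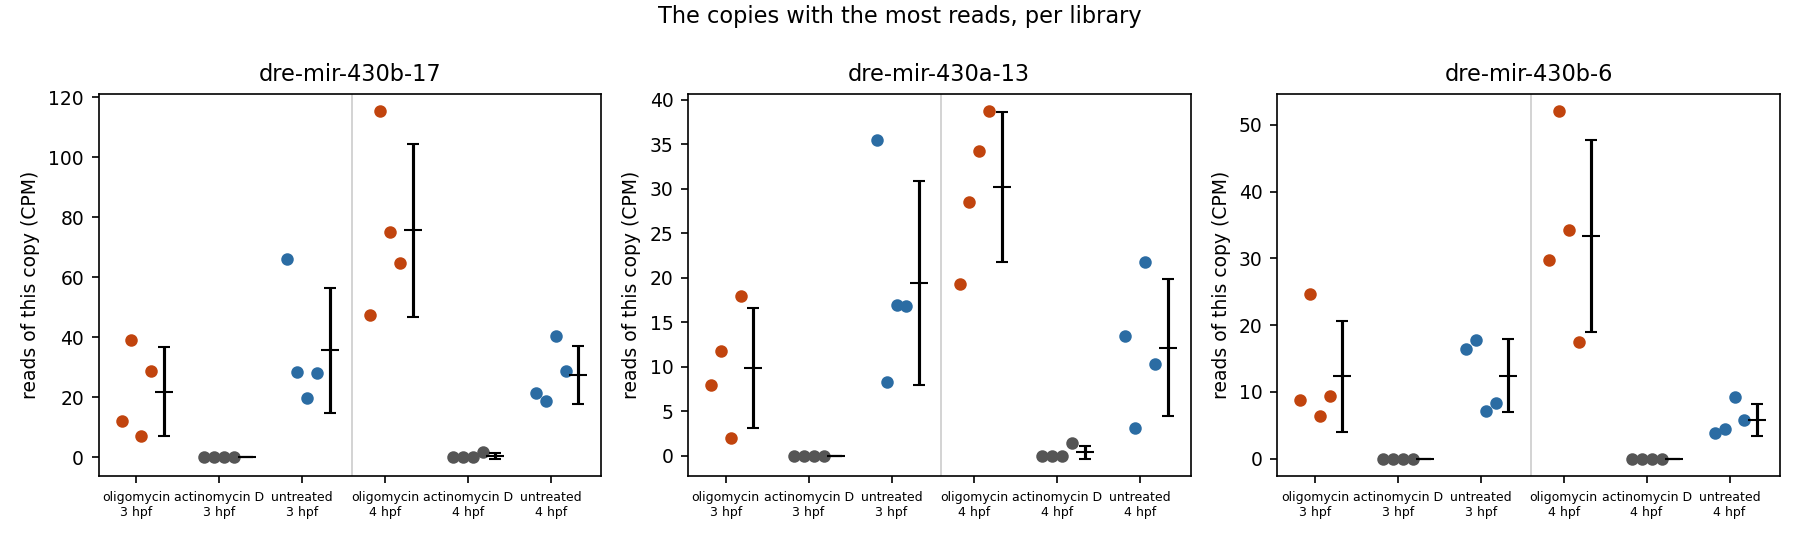
Reads of the 3 hairpins with the most reads in CPM (linear axes that differ between panels), with a point per library and bars for the mean ± SD of each group (n = 4). In dre-mir-430b-6 the 4 oligomycin libraries at 4 hpf (17.4 to 52.1 CPM) lie above the 4 untreated libraries at 4 hpf (3.89 to 9.20 CPM), while at 3 hpf the points of both groups mix.

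Of the hairpins with fewer reads, dre-mir-430b-16 had 12, 22, 19 and 12 reads in oligomycin libraries at 4 hpf, against 1, 1, 3 and 2 reads in untreated libraries at 4 hpf. The ratio of its summed reads per total count was 8.91 (exact binomial 95% interval 4.09 to 23.0, counting error only), and edgeR called it (adjusted p 0.00161). This hairpin and dre-mir-430b-5 passed the filter through their oligomycin libraries, so their differences were conditioned on high counts there. For dre-mir-430b-5 the counts were 12, 8, 17 and 4 in oligomycin libraries, against 3, 1, 8 and 0 in untreated libraries, a log2 fold change of 1.65 (SE 0.811, edgeR adjusted p 0.159) that did not pass. Among genes below the filter, dre-mir-430b-1 had 8, 9, 10 and 2 reads in oligomycin libraries at 4 hpf, against 3, 0, 5 and 0 in untreated libraries. The gene outside the array, mir430a-1, had 0, 1, 4 and 0 reads in oligomycin libraries at 4 hpf, against 0, 0, 0 and 1 in untreated libraries, too few to compare.

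The same hairpins were set against actinomycin D. In actinomycin D against untreated embryos, 3 of 5 were lower at 3 hpf (dre-mir-430b-17, dre-mir-430a-13 and dre-mir-430b-6), where 0.409% of all genes were called lower and 0.0178% higher. The same 3 were lower at 4 hpf, where 7.12% of all genes were called lower and 4.4% higher. At 3 hpf untreated embryos were at least 29.8-fold higher for dre-mir-430b-17 (edgeR adjusted p 0.000457), at least 16.2-fold higher for dre-mir-430a-13 (edgeR adjusted p 0.00123) and at least 10.4-fold higher for dre-mir-430b-6 (edgeR adjusted p 0.000457). The filter on low counts keeps a gene that is high in some groups and at 0 in others, so the members tested were bound to include genes of this kind.

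In oligomycin against actinomycin D embryos at 4 hpf all 5 tested hairpins were higher, where 9.79% of all genes were called higher and 2.14% lower. At 3 hpf 4 of 5 were higher, all but dre-mir-430b-5, where 0.133% of all genes were called higher and 0.0178% lower. This last count was 2 of 5, dre-mir-430b-17 and dre-mir-430b-6, without actinomycin D 3 hpf replicate 2, 3 or 4, although those libraries were all at 0. With the library set as a block, which pairs the libraries of this comparison, the count was also 2 of 5, dre-mir-430b-6 and dre-mir-430b-16. The filter kept dre-mir-430b-16 and dre-mir-430b-5 through their oligomycin libraries, so their calls as higher were conditioned on it.

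Between 4 and 3 hpf no tested hairpin was called in any treatment in the main edgeR fit. The shares of all genes below belong to that fit, so DESeq2 and block calls have no share beside them. In untreated embryos, where 12.8% of all genes were called higher and 14.6% lower, DESeq2 called 0 of 5 hairpins. An unadjusted edgeR p under 0.05 was found for 1 of 5 hairpins and for 4274 of all 11238 genes. In oligomycin embryos, where 0.498% were called higher and 0.0178% lower, DESeq2 called 1. An unadjusted edgeR p under 0.05 was found for 3 of 5 hairpins and for 827 of all 11238 genes. In actinomycin D embryos, where 3.23% were called higher and 7.7% lower, DESeq2 called 0. An unadjusted edgeR p under 0.05 was found for 0 of 5 hairpins and for 2800 of all 11238 genes. With the library set as a block, which pairs the libraries over time, dre-mir-430b-6 was lower at 4 than at 3 hpf in untreated embryos (log2 fold change -0.93, SE 0.363, edgeR adjusted p 0.0494) and higher in oligomycin embryos (1.42, SE 0.300, edgeR adjusted p 0.0315).

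For the change of the treatment differences between the times, 0 of 5 hairpins were called in edgeR without a block. Here too the shares of all genes belong to that fit, not to DESeq2 or the block. For oligomycin 0.81% of all genes were called higher and 0.214% lower, and DESeq2 called 1 of 5 hairpins. In edgeR 3 of 5 hairpins and 1791 of all 11238 genes had an unadjusted p under 0.05. A fit in edgeR that took the library set as a block called dre-mir-430b-6 in the oligomycin change over time (2.35, adjusted p 0.00626). The comparisons of oligomycin with untreated embryos at 3 and at 4 hpf were not read as paired by library set. For actinomycin D 0.721% of all genes were called higher and 1.01% lower, and DESeq2 called 0 of 5 hairpins. In edgeR 0 of 5 hairpins and 1152 of all 11238 genes had an unadjusted p under 0.05. In oligomycin 4 hpf against untreated 3 hpf embryos 0 of 5 were called in edgeR and in DESeq2, and 0.116% of all genes were called higher and 0% lower. There 3 of 5 hairpins and 358 of all 11238 genes had an unadjusted p under 0.05 in edgeR.

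The mix of hairpins within the family was described per library, without a test. Of the family's reads, dre-mir-430b-6 made up 20.9 ± 5.42% in oligomycin embryos and 12.2 ± 2.64% in untreated embryos at 4 hpf (SD, n = 4 each), and dre-mir-430b-17 made up 47.4 ± 4.59% in oligomycin and 57.7 ± 7.99% in untreated embryos at 4 hpf. The ratio of dre-mir-430b-6 to dre-mir-430b-17 reads was 0.269 to 0.627 in oligomycin libraries at 4 hpf and 0.180 to 0.233 in untreated libraries at 4 hpf, and these ranges did not overlap. The highest untreated ratio at 4 hpf came from 7 and 30 reads (replicate 2). At 3 hpf the ratio was 0.327 to 0.909 in oligomycin libraries (mean 0.649) and 0.247 to 0.625 in untreated libraries (mean 0.384), and these ranges overlapped. The highest oligomycin ratio at 3 hpf came from 10 and 11 reads (replicate 3). The assignment of reads to single copies is uncertain, and these shares and ratios carry that limit. Hairpins other than the 3 with the most reads gave 18.2 ± 6.68% of the family's reads in oligomycin embryos and 7.40 ± 2.34% in untreated embryos at 3 hpf. These shares overlapped (9.91 to 26.1% and 5 to 10.3%). At 4 hpf they were 11.5 ± 4.73% in oligomycin and 6.99 ± 3.05% in untreated embryos, and overlapped too (4.50 to 14.7% and 2.96 to 10.2%). At 4 hpf 7 to 13 copies had at least 1 read in oligomycin libraries and 6 to 11 in untreated libraries.

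The miR-430 hairpins were set beside other genes that needed transcription at 3 hpf. In actinomycin D against untreated embryos at 3 hpf, 46 genes were lower, of which 3 were miR-430 hairpins and 43 were other genes. They were then followed in oligomycin against untreated embryos at 4 hpf, a comparison that shares no library with the choice of these genes. The 2 comparisons are not fully independent. Both came from the same fit, and untreated libraries of the same library set deviated together at 3 and 4 hpf. At 4 hpf 12.3% of all genes were called higher and 9.05% lower. Of the 43 others, 0 were higher in edgeR and 9 were lower. At an unadjusted edgeR p under 0.05, 0 were higher and 21 lower, beside 3873 of all 11238 genes in either direction. The median log2 fold change of the 43 genes was -1.17 (all genes tested -0.04), and their range was -2.76 to 0.45, the highest being lft2, so none reached the 1.66 of the miR-430 sum.

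**Figure D4:**
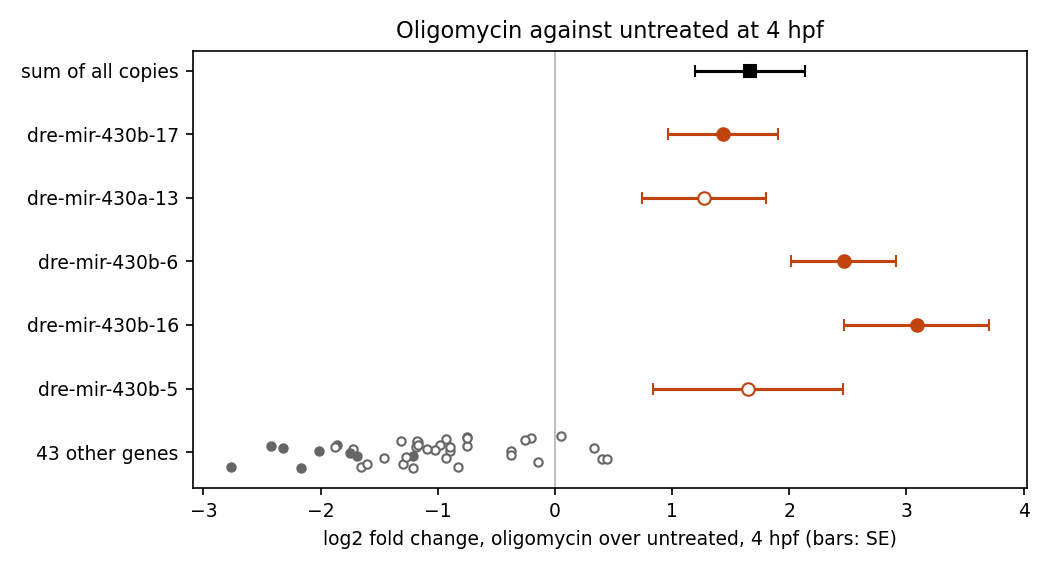
Log2 fold change in oligomycin over untreated embryos at 4 hpf for the summed miR-430 row, the 5 tested hairpins (bars: SE) and the 43 other genes lower in actinomycin D at 3 hpf (a point each, with vertical scatter for legibility only). Filled symbols passed an adjusted p under 0.05 in edgeR, open ones did not. The family sum at 1.66 and all 5 hairpins lie to the right of the 43 genes, of which the highest is at 0.45. Of the hairpins, dre-mir-430b-16 and dre-mir-430b-5 did not meet the rule that chose the 43 genes, and passed the filter through oligomycin libraries.

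Per library, the sum of the 43 genes at 4 hpf was 976, 2733, 1958 and 3785 CPM in oligomycin embryos, against 5318, 5412, 4974 and 4057 CPM in untreated embryos. The miR-430 sum and this sum thus stood in opposite order between the groups. Per 1000 CPM of the 43 genes, miR-430 made 115, 82.3, 86.0 and 33.5 CPM in oligomycin libraries at 4 hpf and 7.95, 5.21, 16.0 and 11.4 CPM in untreated libraries at 4 hpf, and the groups did not overlap. At 3 hpf the same ratio was 167, 94.2, 59.0 and 51.8 CPM in oligomycin libraries and 63.0, 23.8, 94.9 and 67.5 CPM in untreated libraries, which overlapped. The ratios of oligomycin libraries at 4 hpf also overlapped those of untreated libraries at 3 hpf. This ratio was chosen after the data had been seen and was given no test.

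**Figure D5:**
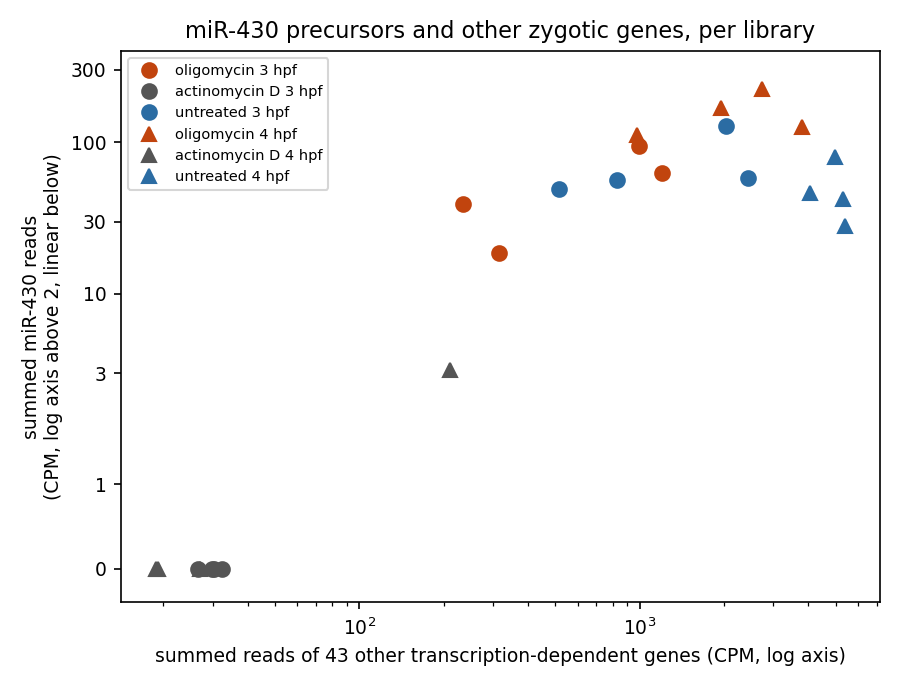
Summed miR-430 reads against the summed reads of the 43 other transcription-dependent genes, in CPM, with a point per library (both axes logarithmic, the vertical one linear below 2). The untreated 4 hpf libraries lie farthest to the right, at 4057 to 5412 CPM of the 43 genes, with 28.2 to 79.5 CPM of miR-430, and the oligomycin 4 hpf libraries lie to their left and above them.

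All other genes with a symbol were ranked by how closely their log2 CPM followed the miR-430 sum over the 24 libraries. By Pearson's r among 11005 genes, the 10 highest were irx7 (0.98), mxtx2 (0.95), GADD45B (0.95), grhl3 (0.94), vox (0.94), lft2 (0.93), klf17 (0.92), FILIP1 (0.91), zgc:100951 (0.90) and dharma (0.90). The values are descriptions: the libraries share groups and depth, and the 8 actinomycin D libraries, at or near 0, are among the points. All 10 genes were also among the 43 other genes lower in actinomycin D than in untreated embryos at 3 hpf. The ranking included the libraries that chose the 43 genes, so this overlap is no separate evidence. Ranked by Spearman's rho, 3 of these 10 stayed among the first 10. The homeobox gene irx7 had 111 ± 51.7 CPM in oligomycin and 83.3 ± 25.4 CPM in untreated embryos at 4 hpf (SD, n = 4 each), a log2 fold change of 0.40 (edgeR adjusted p 0.590), and none of the 10 was called in that comparison.

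Other microRNA precursor genes gave little to compare. Of 261, 41 had at least 1 read in the 24 libraries and 220 had none. Together they had 212 reads, the highest single gene had 42, and none passed the filter on low counts.

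Among the proteins that make and use microRNAs, drosha, the nuclease that frees hairpins from primary transcripts, differed between oligomycin and untreated embryos at 4 hpf. Of the 14 names listed, 12 were found and 10 tested. In oligomycin against untreated embryos at 4 hpf 1 was higher and none lower, against 12.3% and 9.05% of all genes. The level of drosha was 154, 156, 155 and 99.97 CPM in oligomycin libraries at 4 hpf, against 44.0, 62.1, 62.2 and 65.4 CPM in untreated libraries at 4 hpf, and these did not overlap. Its log2 fold change was 1.27 (SE 0.175, edgeR adjusted p 3.42e-05).

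The course of drosha over time differed between oligomycin and untreated embryos. Between 4 and 3 hpf drosha fell by 1.18 on the log2 scale in untreated embryos (edgeR adjusted p 3.29e-05). It fell by 1.105 in actinomycin D embryos (edgeR adjusted p 0.000376), while in oligomycin embryos the change was -0.05 (edgeR adjusted p 0.992). The change of the oligomycin difference over time was 1.13 (SE 0.242, edgeR adjusted p 0.0287). The partner gene dgcr8 (log2 fold change -0.19, edgeR adjusted p 0.200) and dicer1 (-0.13, edgeR adjusted p 0.704) were not called in oligomycin against untreated embryos at 4 hpf. Whether drosha bears on the hairpin reads was not tested.

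Of the activators of the locus, nanog and pou5f3 were lower in oligomycin than in untreated embryos at 4 hpf, 2 of 3 tested, where 9.05% of all genes were called lower. The third, sox19b, was not called (log2 fold change -0.18, edgeR adjusted p 0.257). The level of nanog averaged 1013 ± 242 CPM in oligomycin and 1649 ± 99.1 CPM in untreated embryos (SD, n = 4 each; log2 fold change -0.70, SE 0.127, edgeR adjusted p 0.000385). That of pou5f3 was 460.2 ± 62.6 CPM in oligomycin and 678 ± 83.6 CPM in untreated embryos (log2 fold change -0.56, SE 0.108, edgeR adjusted p 0.000755). In untreated embryos all 3 rose between 3 and 4 hpf, by 0.83, 0.57 and 0.31 on the log2 scale, where 12.8% of all genes were called higher. In actinomycin D against untreated embryos at 4 hpf nanog (-0.68) and pou5f3 (-0.51) were also lower, where 7.12% of all genes were called lower.

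Of the 8 names listed as targets of miR-430 reported in zebrafish, 6 were found and tested, and in oligomycin against untreated embryos at 4 hpf 1 was higher, 1 lower and 4 were not called, beside 12.3% of all genes called higher and 9.05% lower. The germ cell gene nanos3 had 169 ± 11.5 CPM in oligomycin and 122 ± 24.2 CPM in untreated embryos (SD, n = 4 each; log2 fold change 0.47, SE 0.143, edgeR adjusted p 0.0195). The chemokine gene cxcl12a had 8.92 ± 6.91 CPM in oligomycin and 46.0 ± 14.0 CPM in untreated embryos (log2 fold change -2.33, SE 0.538, edgeR adjusted p 0.00355). Its mean was 0.351 CPM in actinomycin D embryos at 4 hpf and 2.12 CPM in untreated embryos at 3 hpf. Where the reads of cxcl12a came from, and whether miR-430 bears on them, was not tested. The Nodal ligand gene ndr1 (log2 fold change 0.24, edgeR adjusted p 0.596) and the Nodal antagonist gene lft2 (0.45, edgeR adjusted p 0.568) were not called. At 4 hpf the means of ndr1 and lft2 were 2.14 and 0.263 CPM in actinomycin D embryos, against 16.6 and 18.1 CPM in untreated embryos. Also not called were tdrd7a (4 hpf means 130 CPM in oligomycin and 112 CPM in untreated embryos) and ccna1 (4430 and 4575 CPM). Between 4 and 3 hpf the log2 change of nanos3 was 0.0014 in oligomycin embryos (edgeR adjusted p 0.999). In actinomycin D embryos nanos3 was lower at 4 than at 3 hpf (-0.45, edgeR adjusted p 0.0401), where 7.7% of all genes were called lower. It was also lower in untreated embryos (-0.46, edgeR adjusted p 0.0190), where 14.6% of all genes were called lower. Whether miR-430 bears on nanos3 was not tested.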

How the data were processed

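The authors deposited a table of read counts per Ensembl gene for each of 24 libraries of zebrafish embryos (4 per group, 6 groups). The deposited counts are whole numbers, not normalized. The submitters' processing notes name Bowtie2 2.3.4.1, Subread 1.6.2, featureCounts and the build GRCz11, without saying which did what. Not given in the sources used here are the counting of reads that match several copies, the strand setting, the annotation release and whether molecular identifiers were used.

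The main test was edgeR 4.0.16 (R 4.3.3), with its robust quasi-likelihood fit on all 24 libraries, 1 mean per group, TMM scaling and the filterByExpr filter by group, which kept 11238 genes. Benjamini-Hochberg adjustment ran over all rows tested, with a call at an adjusted p under 0.05. For the summed test, 1 row with the count of all 55 members replaced their own rows. CPM are counts divided by the library's total count times its TMM factor. The standard error is the log2 fold change divided by the square root of the F statistic. Where a group held 0 reads, a fold is a lower bound against 3 reads per library. Log2 CPM for correlations used a prior count of 2. The procedure was also run on simulated counts, which had the same spread for all genes and no effect of library set. That run does not show how the procedure performs on the miR-430 rows.

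Members and gene lists were chosen with earlier results of these data known. Text names the members, the 10 genes most like the sum by Pearson's r, and listed genes. Gene names came from a symbol table and RefSeq synonyms.

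Replicate numbers follow accession order. Titles carry library numbers in 4 sets of 6 adjacent ones, 1 library of each group per set, with no statement of what they mark. Libraries of a set deviated together from their group means (r over 0.1 in all 4 pairs) in 7 of 10 comparisons, which were read as paired. The other 3 comparisons set oligomycin against untreated embryos, and 3 of 4 pairs passed there. All pairs of replicates differed by more than counting noise (smallest chi-square per gene 3.88). Alternatives were scaling by total counts, DESeq2 1.42.0, other filters, the block, each library series, the groups compared alone, the sum without its largest copy, and each library left out.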

Additional observations from a re-analysis of the deposited data

Results flagged for a closer look

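Within each group, the distance of the highest or lowest library to its neighbour was divided by the range of the group, for the family sum and the 3 hairpins with the most reads. Of 24 such groups, 5 passed Dixon's 95% critical value for 4 libraries. The groups are not independent, since the sum contains the hairpins, and a group with all libraries at 0 cannot pass. The count of groups that passed was therefore not set against a chance rate. For the family sum in actinomycin D embryos at 4 hpf the ratio was 1, because replicate 4 had 3.16 CPM and the other 3 libraries had 0. The same library gave a ratio of 1 for dre-mir-430b-17 (1.75 CPM) and for dre-mir-430a-13 (1.40 CPM). In untreated embryos at 3 hpf the ratio of the family sum was 0.885, because replicate 1 had 129 CPM and the others had 48.9 to 58.1 CPM. In oligomycin embryos at 3 hpf the ratio of dre-mir-430b-6 was 0.837, because replicate 2 had 24.6 CPM and the others had 6.42 to 9.40 CPM.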

How the results depend on the processing

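The family sum kept its direction and its call in every comparison under scaling by total counts, without a filter, with the library set as a block and without the copy with the most reads. A filter of 10 counts in every library left no member to test. With a series alone, 2 libraries per group, calls were lost: oligomycin against untreated at 4 hpf gave 2.23 (first series) and 1.27 (second series), actinomycin D against untreated at 3 hpf -10.73 and -10.26, and oligomycin against actinomycin D at 3 hpf 10.23 and 9.97. The last comparison also missed the threshold in the fit of the compared groups alone (10.14, adjusted p 0.0608). The change over time in untreated embryos turned to 0.22 in the second series. DESeq2 called the change over time in actinomycin D embryos (3.55), which has no value without replicate 4 at 4 hpf or in the first series.

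Without each library in turn the sum ranged from 1.45 to 1.998 in oligomycin against untreated at 4 hpf (adjusted p 0.00987 to 0.0567) and from -0.82 to 0.0047 at 3 hpf. The number of hairpins called ranged from 2 to 4 in oligomycin against actinomycin D at 3 hpf and from 0 to 1 in the oligomycin change over time, where dre-mir-430b-6 was called without oligomycin 3 hpf replicate 2, untreated 4 hpf replicate 3 or oligomycin 4 hpf replicate 4. The number also ranged from 2 to 4 in oligomycin and from 3 to 4 in actinomycin D, each against untreated embryos at 4 hpf.

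With the replicate block the summed calls did not change. The number of hairpins called was 2 in oligomycin against actinomycin D at 3 hpf, 1 in 4 against 3 hpf in untreated and 1 in oligomycin embryos, and 1 in the oligomycin change over time. In oligomycin against untreated at 4 hpf it was 2, without dre-mir-430b-17.

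Other counts of hairpins called were as follows. In actinomycin D against untreated at 3 hpf the first series called 1 and the second called 0, in oligomycin against actinomycin D at 3 hpf 0 in either series, in oligomycin against untreated at 4 hpf 0 in the second series, and in 4 against 3 hpf in untreated embryos 1 in the first series. In the fit of the compared groups alone 1 was called in actinomycin D against untreated at 4 hpf, 1 in oligomycin against actinomycin D at 3 hpf and 3 at 4 hpf. DESeq2 called 1 in 4 against 3 hpf in oligomycin embryos and 1 in the oligomycin change over time. Apart from fits with fewer libraries, the cause of these changes was not tested. Counts of hairpins called in alternative fits, here and above, were not set against the share of all genes called in the same fit. Depth limits the hairpins below the filter, whose counts reached at most 10 per library.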
